A study of Mus musculus with 8 samples.

Results

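The nuclear genes of the mitochondrial respiratory chain were examined in Lats2-/- and Lats2+/+ mouse embryonic fibroblasts (MEFs). Genes were chosen by name: those whose symbol on the array starts with Nduf (complex I), Sdha to Sdhd (complex II), Uqcr (complex III), Cox4 to Cox8 (complex IV) or Atp5 (ATP synthase). This rule was set with earlier results of these data known. This gave 116 probes of 83 genes, out of 41174 gene probes of 27745 gene names. Probes counted as measured, or kept, when either genotype had at least 2 of its 3 RNA extracts well above background, which left 80 of the 83 genes and 14791 of all genes. Each gene was read at its brightest kept probe. All 80 genes were above background in all 16 channels, 1 channel for each genotype on 8 arrays. Of the 83 genes, 72 encode subunits. Grouped by name, they are 36 of complex I, 4 of complex II, 7 of complex III, 10 of complex IV and 15 of ATP synthase. Another 6 are paralogs of complex IV subunits that are used in muscle, testis or other tissues, and 4 encode assembly or associated factors. The remaining gene, Cox4nb (now Emc8), shares only its name with complex IV.

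The respiratory chain passes electrons from NADH and succinate to oxygen. Complex I (NADH dehydrogenase) and complex II (succinate dehydrogenase) feed electrons to ubiquinone, complex III hands them to cytochrome c, and complex IV (cytochrome c oxidase) delivers them to oxygen, while ATP synthase uses the proton gradient that results. Most subunits are encoded in the nucleus on many chromosomes, and complexes I, III and IV and ATP synthase also hold subunits encoded by mitochondrial DNA. Nuclear subunit genes are expressed in nearly all cells, and NRF1, GABP and YY1 are among the transcription factors known to act at their promoters.

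The Lats2 kinase belongs to the Hippo pathway, which restrains growth. MEFs of strain C57BL/6J, which received no treatment, came from 3 litters numbered 112, 116 and 121, and each litter gave 1 extract of each genotype, from 1 named clone. Embryonic age and how the Lats2-/- allele was made were not given in the sources used here. Both extracts of a litter shared each array, with the dyes swapped between arrays, on 2 arrays for litters 112 and 116 and on 4 arrays for litter 121. Litters 112 and 116 lie on slide 1 and litter 121 lies on slide 2, so that litter 121 and slide 2 cannot be told apart. Every value below is a log2 ratio of Lats2-/- over Lats2+/+ unless stated otherwise, positive where Lats2-/- cells were higher, and n = 3 litters. The number of arrays limits the precision of each ratio. Of the 4 Lats2 probes, 1 was lower in Lats2-/- cells in every litter, with ratios of -1.33, -1.05 and -0.56, while the other 3 read -0.28 to -0.18 in litter 112, -0.70 to -0.49 in litter 116 and 0.80 to 1.17 in litter 121. The position of the deletion was not given in the sources used here, and a probe outside it checks nothing. Fibroblast markers were present, 8 of 9 in all 16 channels. For other cell types the lists were mixed. Above background in no channel were 3 of 5 brown fat markers (Ucp1, Cidea, Elovl3), 3 of 5 of endothelium (Pecam1, Cdh5, Tie1), 2 of 6 of macrophages (Adgre1, Ptprc), 2 of 6 of the heart (Actn2, Myh6), 1 of 5 of epithelium (Epcam) and 1 of 5 neural ones (Sox2). The others were detected in some or all channels, among them Ppargc1a, Tek and Krt5 on 8 Lats2-/- and 7 Lats2+/+ arrays, Tnni3 on 8 and 8, and Cd68 on 4 and 7. Kdr, Cdh1 and Dcx were detected on 4 Lats2-/- and 0 Lats2+/+ arrays, and those 4 were the repeat arrays of the 1 Lats2-/- extract of litter 121. In the other direction, Krt8 and Krt18 were detected on 0 Lats2-/- and 2 Lats2+/+ arrays, both of litter 116, and Prdm16 on 0 and 3. Summed marker levels still differed within litters, by -0.04, 1.41 and -0.81 in litters 112, 116 and 121 for the fibroblast list. The sum follows the brightest genes, and single fibroblast markers differed by more and in both directions. Dcn had ratios of 3.26, 6.22 and -1.94, Col3a1 0.13, 3.70 and -3.42, Thy1 -0.38, 2.05 and -3.66, Pdgfra 0.90, 0.13 and -4.96, and Vim 0.08, -1.19 and -0.07. The macrophage list differed by 2.46 in litter 121, where Lyz2 had a ratio of 3.40 and the other 5 markers had -0.16 to 0.08. The neural list differed by 1.93 there, where Nes had 4.10 and the other 4 had -0.09 to 0.40. The heart list differed by 2.32 there, where Tnnt2 had 3.32 and Myh7 3.07, with -0.40 to 0.08 for the other 4. The part of these differences in the values below was not tested, and in bulk RNA fewer cells of a type and less RNA per cell cannot be told apart.

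No respiratory chain gene passed the test between genotypes. In limma's moderated test of the litter ratios, 0 of the 80 genes had an adjusted p under 0.05, where 0 of 14791 genes (0%) passed in all, and 0 of the 80 had an unadjusted p under 0.05, where 7.59% of all genes did. The smallest unadjusted p was 0.0692 (Ndufa12), with an adjusted p of 0.716. The plain test that the methods name, run on the same litter values, gave an unadjusted p under 0.05 for 3 genes (Ndufb2, Sdhd and Ndufa12l; 3.75%, beside 5.82% of all genes) and an adjusted p under 0.05 for 0. No gene was at least 2-fold apart in the same direction in every litter. The median of the 80 mean ratios was 0.04, beside 0.01 over all genes. The 80 genes were bright, with a median log2 signal of 13.59 beside 8.97 over all genes kept. Except where stated, the shares of all genes given here are not matched for signal. The 95% confidence interval of the mean, taken gene by gene, lay between a 2-fold decrease and a 2-fold increase for 74 of 80 genes (92.5%) and for 79% of all genes tested. The 6 genes with a wider interval were Atp5j, Atp5o, Ndufs6, Uqcrh, Cox6a2 and Cox7a1.

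Of the 80 genes, 17 (21.2%) had the same sign in all 3 litters, beside 30% of all genes, and these were 9 higher and 8 lower in Lats2-/- cells. The median SD over litters was 0.24. The median range over the repeat arrays of 1 litter, which share their extracts and so show technical spread only, was between 0.10 and 0.13. Between litters 112 and 116, the ratios of the 80 genes correlated with Pearson's r = 0.07 and Spearman's rho = 0.07, between 112 and 121 with 0.13 and 0.15, and between 116 and 121 with -0.17 and -0.16. The points are genes on shared arrays and not independent samples. Of the 80 genes, 56 in litter 112 were higher in Lats2-/- cells (70%, beside 52.3% of all genes). In litter 116, 39 were higher (48.8%, beside 50.7%), and in litter 121, 29 (36.2%, beside 50.9%). The medians of the 80 genes were 0.11, -0.01 and -0.05 in the same order, beside 0.02, 0.01 and 0.01 over all genes. Centring each array on its median in place of loess moved the median of the mean ratios from 0.04 to -0.02, so that its sign depends on the normalization.

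**Figure D1:**
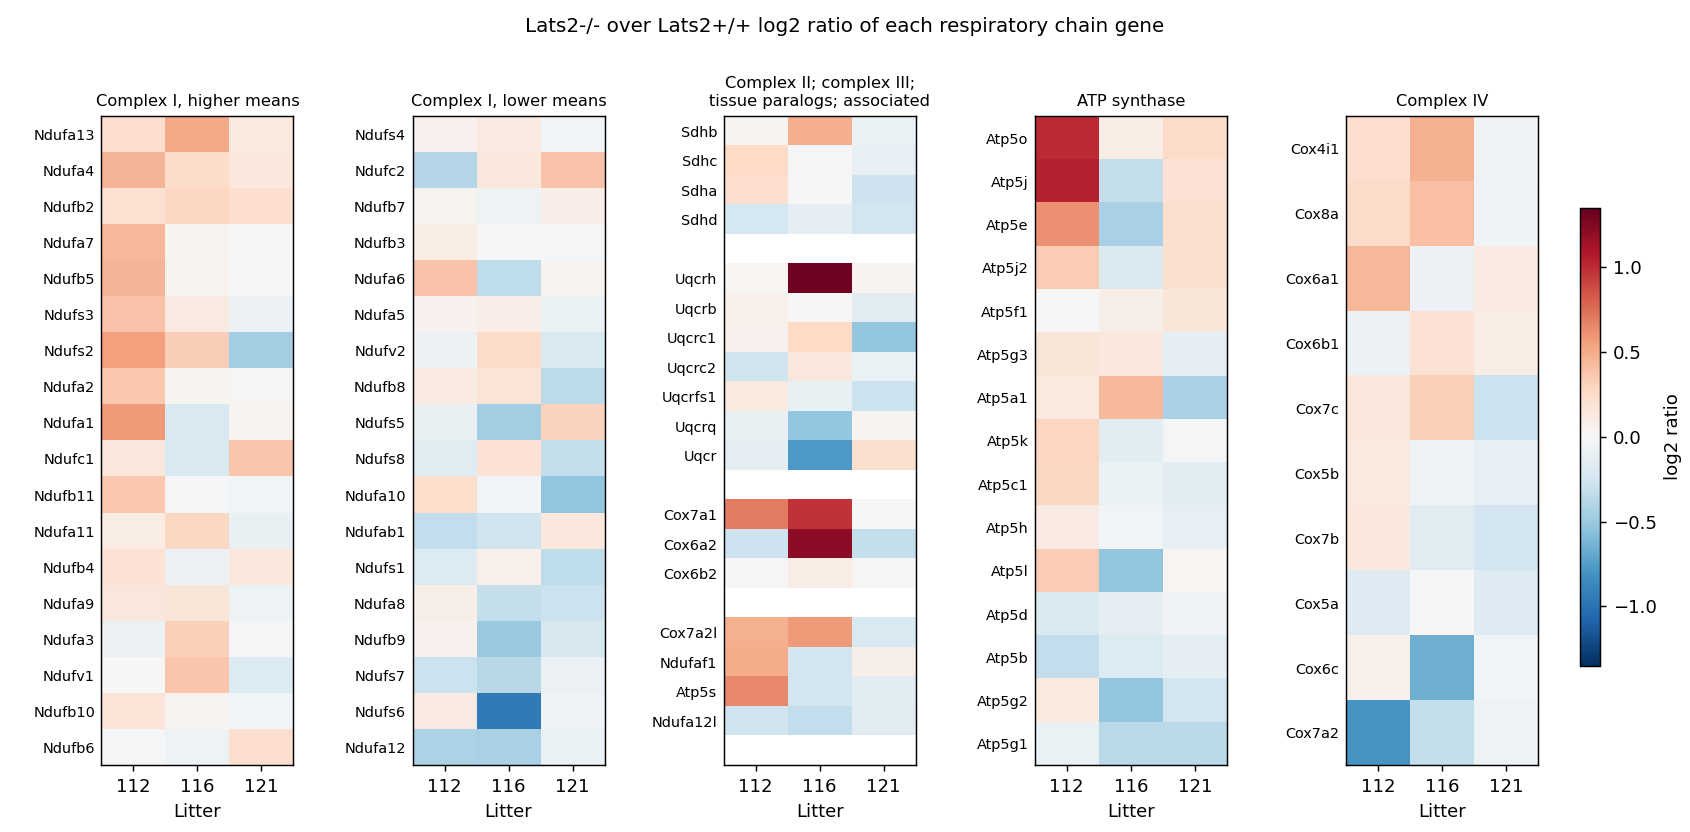
Log2 ratio of Lats2-/- over Lats2+/+ for each respiratory chain gene (rows) in litters 112, 116 and 121 (columns), read at its brightest kept probe. Red is higher and blue lower in Lats2-/- cells, and genes are ordered by mean within a group. The highest ratios were Uqcrh at 1.31 in litter 116, Cox6a2 at 1.21 in litter 116 and Atp5j at 1.03 in litter 112, while Cox7a1 was high in 2 litters, at 0.69 in litter 112 and 0.98 in litter 116.

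Complex I was the largest group, with 36 genes. Its median ratios in litters 112, 116 and 121 were 0.11, 0.04 and -0.04, and 26, 20 and 14 of the 36 genes were higher in Lats2-/- cells. The catalytic core showed small ratios of both signs. Ndufs1, the large iron-sulfur subunit, had ratios of -0.18, 0.06 and -0.34 in litters 112, 116 and 121 (mean -0.15, 95% interval -0.51 to 0.21). Ndufv1, which binds NADH, had 0.00, 0.37 and -0.18 (mean 0.06, interval -0.36 to 0.49). Both intervals lay within 2-fold. The highest mean was that of Ndufa13, an accessory subunit, with 0.23, 0.51 and 0.14 (mean 0.29 ± 0.20, SD; limma, adjusted p = 0.723). Ndufa4, named for complex I but now counted as a complex IV subunit, was of like size, with 0.45, 0.25 and 0.14 (mean 0.28 ± 0.16). It stays among the 36 complex I genes in every count and median here. Ndufb2, another accessory subunit, had the smallest SD of the complex, with 0.21, 0.28 and 0.23 (mean 0.24 ± 0.04; limma, adjusted p = 0.716). Its second, much dimmer probe gave 0.22, -0.42 and 0.04, so that its 2 probes disagreed in the sign of the mean. The lowest mean was that of Ndufa12, an accessory subunit of the part that holds the catalytic core, with -0.42, -0.44 and -0.09 (mean -0.31 ± 0.20; limma, adjusted p = 0.716). The other 2 probes of Ndufa12 read -0.94 and -0.93 in litter 112, -0.37 and -0.35 in litter 116 and -0.15 and -0.14 in litter 121, so that the probes were apart in litter 112 and close in the others.

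A single litter set the mean of Ndufs6, a zinc-binding subunit of complex I. Its 3 probes read 0.09 to 0.11 in litter 112, -0.97 to -0.95 in litter 116 and -0.09 to -0.05 in litter 121. In litter 116 its log2 signal was 12.57 in Lats2-/- cells and 13.52 in Lats2+/+ cells, while the genotypes were close in the other litters. The mean of -0.30 ± 0.57 had an adjusted p of 0.825 in limma's test. Probes of 2 further complex I genes disagreed in the sign of the mean. These were Ndufa3 (0.07 at the brighter and -0.05 at the dimmer probe) and Ndufb8 (-0.03 and 0.08), and all 4 means were smaller than their SD over litters.

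Complex II has 4 subunits, and all 4 are nuclear. Sdha, the flavoprotein, had ratios of 0.23, 0.01 and -0.28 (mean -0.01), and its dimmer probe had a mean of 0.04. Sdhb, the iron-sulfur subunit, had 0.04, 0.49 and -0.09 (mean 0.15 ± 0.30), the highest mean of the complex. The membrane anchors were Sdhc, with 0.27, -0.03 and -0.11, and Sdhd, with -0.24, -0.13 and -0.25 (mean -0.21 ± 0.06; limma, adjusted p = 0.732), the lowest. All 4 genes were lower in Lats2-/- cells in litter 121, where the median was -0.18, whereas 3 of 4 were higher in litter 112. For Sdhd the arrays with Lats2-/- RNA in Cy5 and in Cy3 differed by at least 0.31 in every litter, more than its SD over litters.

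In complex III, 6 of 7 genes had a mean below 0, between -0.03 and -0.23, and the exception was Uqcrh. The group medians were 0.03, -0.00 and -0.09. Uqcrc1, a core protein, had ratios of 0.06, 0.27 and -0.52 and Uqcrfs1, the Rieske iron-sulfur protein, had 0.13, -0.10 and -0.29, so that neither kept its sign. Uqcrh, the hinge protein that sits beside cytochrome c1, had 0.03, 1.31 and 0.04. Its second probe gave like values, 0.05, 1.33 and -0.04. On the 2 arrays of litter 116 the brighter probe read 1.44 with Lats2-/- RNA in Cy5 and 1.19 with it in Cy3. The log2 signals of the 2 genotypes were 15.24 and 13.93 in litter 116, 14.43 and 14.40 in litter 112 and 14.59 and 14.55 in litter 121, so that the groups were apart in litter 116 alone. Its mean of 0.46 ± 0.74 had an adjusted p of 0.785 in limma's test and an interval of -0.45 to 1.37. Uqcr (now Uqcr11), a small accessory subunit, had the lowest mean, -0.23 ± 0.50, from ratios of -0.12, -0.77 and 0.21. Uqcrq, another small subunit, was also lowest in litter 116, at -0.53, with -0.10 and 0.04 in the others.

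Among the 10 complex IV subunits, medians were 0.14, -0.03 and -0.06. Cox4i1, the isoform that most tissues use, had ratios of 0.23, 0.48 and -0.05 (mean 0.22 ± 0.26), the highest mean of these 10, below that of Ndufa4. Cox5b, a subunit on the matrix side, had 0.13, -0.07 and -0.11 (mean -0.02, interval -0.32 to 0.29), and its mean was 0.03 with the scanner software's processed signals. The lowest mean was that of Cox7a2, the isoform found in most tissues, with -0.79, -0.32 and -0.06 (mean -0.39 ± 0.37; limma, adjusted p = 0.727). Its second probe gave -0.76, -0.36 and -0.10, and all 8 arrays were below 0. Cox6c was low in litter 116 alone, at -0.66, with 0.07 and -0.04 in the others. Cox6a1 had 0.45, -0.08 and 0.11, and the arrays of opposite dye orientation differed by at least 0.43 in each litter for this gene.

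Of the 15 ATP synthase genes, most were above 0 in litter 112 and below 0 in litter 116. In litters 112, 116 and 121, 12, 4 and 6 of the 15 were higher in Lats2-/- cells, with medians of 0.16, -0.14 and -0.05. Atp5o, which encodes the subunit that joins the catalytic head to the stalk, had 1.003, 0.10 and 0.26 (mean 0.45 ± 0.48; limma, adjusted p = 0.739, interval -0.18 to 1.08), the highest mean. Atp5j, a subunit of the same stalk, had 1.03, -0.32 and 0.19 (mean 0.30 ± 0.69). These were the only members at least 2-fold apart in litter 112, beside 4.61% of all genes there. In litter 116 the 2 such members were Uqcrh and Cox6a2 (9.24% of all genes), and in litter 121 there were 0 (7.27% of all genes). Atp5a1, the alpha subunit of the head, had 0.13, 0.44 and -0.44 (mean 0.05), and its second probe had the same signs. Atp5g1, a gene for the membrane ring, had the lowest mean, with -0.09, -0.37 and -0.37 (mean -0.27 ± 0.16; limma, adjusted p = 0.719). The other 2 ring genes were not lower throughout: Atp5g2 had 0.13, -0.52 and -0.26 and Atp5g3 had 0.16, 0.14 and -0.13. For Atp5j2, a small membrane subunit, the brighter probe had a mean of 0.12 and the dimmer -0.05.

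Atp5b, the catalytic beta subunit, was below 0 in all litters at each of its 3 probes. The brightest probe gave -0.34, -0.19 and -0.12 (mean -0.22; limma, adjusted p = 0.736). The other 2 gave -0.28, -0.30 and -0.43 and -0.29, -0.30 and -0.46 (means -0.34 and -0.35; limma, adjusted p = 0.711 for both), and their unadjusted p was under 0.05. At the brightest probe the value depended on the dye. Arrays with Lats2-/- RNA in Cy3 read -0.63 in litter 112, -0.42 in litter 116 and -0.47 and -0.40 in litter 121. Arrays with it in Cy5 read -0.04, 0.05, 0.21 and 0.16 in the same order. This probe had the widest spread over arrays of all 80 genes in each litter.

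**Figure D2:**
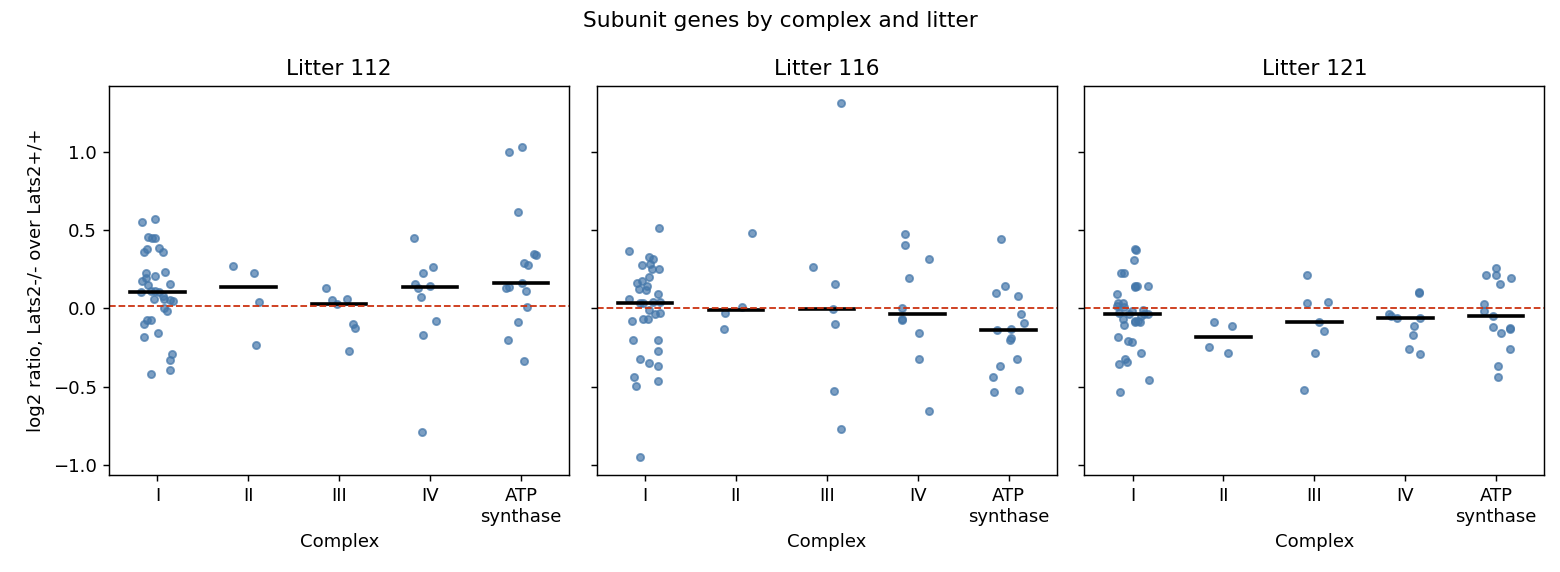
Log2 ratios of the 72 subunit genes by complex in each litter. Each point is a gene, the black bar is the median of the complex and the red dashed line is the median of all 14791 genes. The bars lie between -0.18 and 0.16, and the farthest points are Uqcrh in litter 116 and Atp5j and Atp5o in litter 112.

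**Figure D3:**
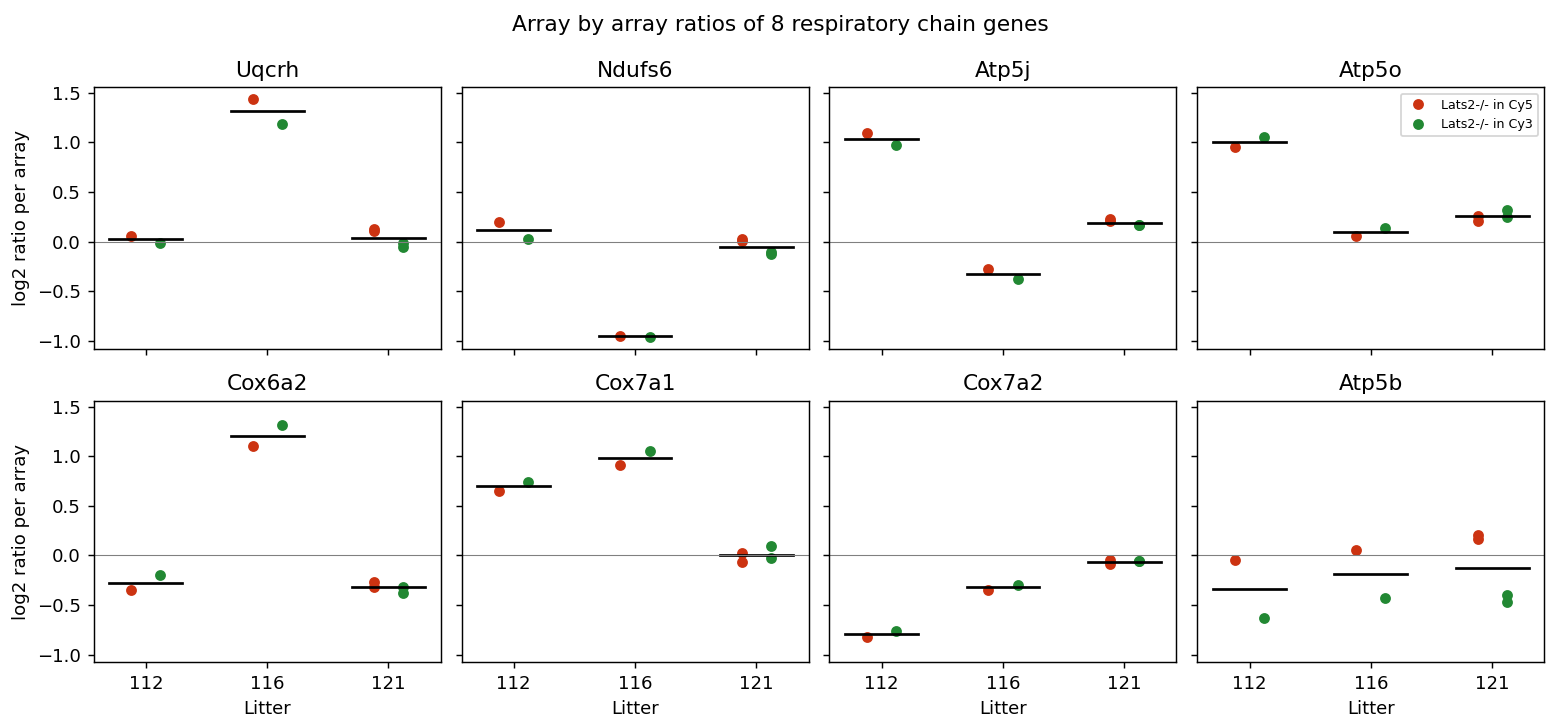
Log2 ratio on each array for 8 genes, with Lats2-/- RNA in Cy5 (red) or Cy3 (green); the black bar is the mean of the litter. Arrays of a litter lie farthest apart for Atp5b, whose values split by dye.

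Within a litter, the ratio of a respiratory chain gene went with the ratios of the genes around it on the chromosome. For each of the 80 genes, the median ratio of all other kept genes within 5 Mb was taken, leaving out the respiratory chain genes (mm8, the build of the probe positions). Across the 80 genes, the gene's own ratio correlated with this local median with Pearson's r of 0.77, 0.65 and 0.38 and Spearman's rho of 0.68, 0.67 and 0.37 in litters 112, 116 and 121. The points share arrays, and genes close to each other share neighbours. The ratio lay on the same side of 0 as the local median for 58, 59 and 49 of the 80 genes (72.5%, 73.8% and 61.3%), beside 60.8%, 59.1% and 58.3% of all genes. Over 14569 other genes, the same correlation was 0.25, 0.19 and 0.14. Over the 1439 of these whose signal was at or above the lower quartile of the 80 genes, it was 0.35, 0.26 and 0.19. Whether the respiratory chain genes differ from the rest in this was not tested. Taking the local median away reduced the SD among the 80 genes from 0.32 to 0.23 in litter 112, from 0.38 to 0.31 in litter 116 and from 0.20 to 0.18 in litter 121.

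**Figure D4:**
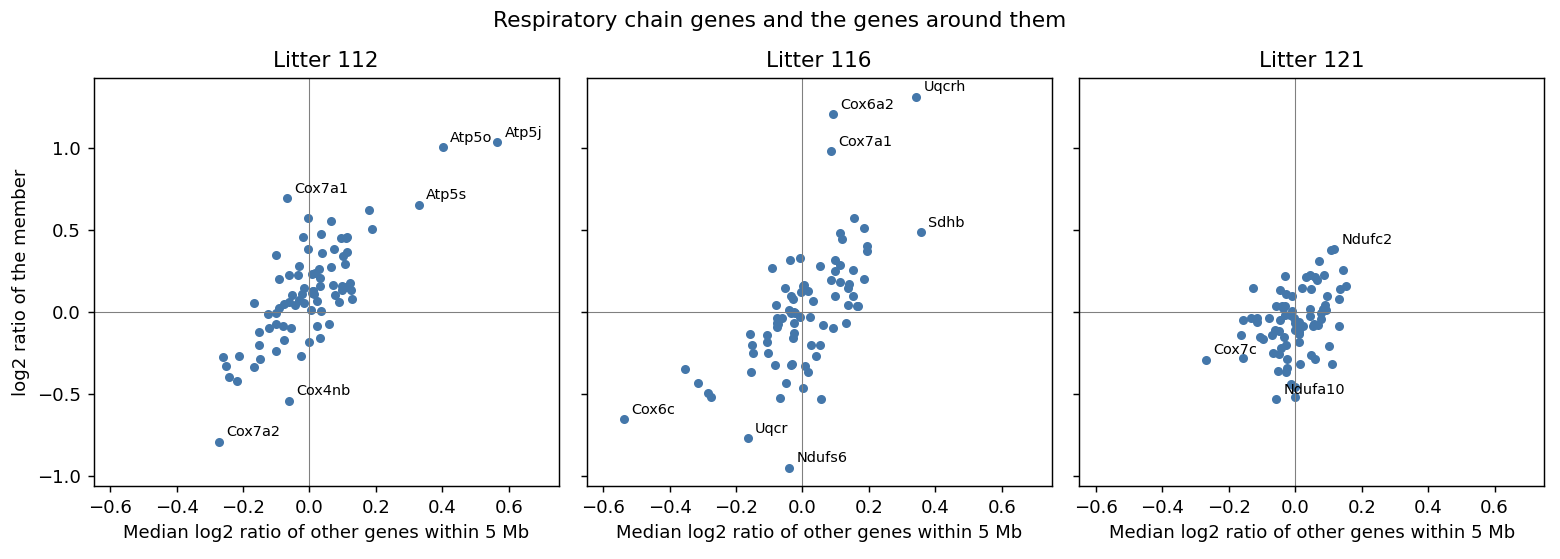
Log2 ratio of each of the 80 genes (y axis) against the median log2 ratio of the other genes within 5 Mb (x axis), in each litter. Atp5j and Atp5o in litter 112 and Uqcrh, Sdhb and Cox6c in litter 116 lie at the ends of the x axis, while Ndufs6 and Cox6a2 lie far from 0 on the y axis alone.

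Atp5j and Atp5o lie together on distal chromosome 16. Their probes are at chr16:84710523-84710582 and chr16:91814153-91814212 on the minus strand. In the bin from 80000001 to 100000000 on this chromosome, 80 other genes had medians of 0.40, -0.03 and 0.10 in litters 112, 116 and 121, whereas all 470 genes of the chromosome had -0.01 in litter 112. The third member on chromosome 16, Ndufb4, a complex I subunit, lies outside the bin and had 0.20 in litter 112, where its neighbours had -0.09. The pair was thus highest in the litter where the genes around them were also highest.

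On chromosome 15, the median of 608 other genes was -0.29 in litter 116, where 27.3% of them were higher in Lats2-/- cells, and -0.02 and -0.03 in litters 112 and 121. All 4 members on this chromosome were lower in litter 116. They were Atp5g2 at -0.52, Ndufa6 at -0.35, Ndufb9 at -0.50 and Cox6c at -0.66, and in litter 112 the same genes had 0.13, 0.38, 0.06 and 0.07. Cyc1, the gene for cytochrome c1 of complex III, is also on chromosome 15 and had -0.09, -0.39 and -0.37. On chromosome 4, 898 other genes had a median of 0.22 in litter 116 (66.6% higher), and the 4 members were unlike each other: Uqcrh had 1.31 and Sdhb 0.49, with local medians of 0.34 and 0.36, whereas Ndufb6 had -0.07 and Ndufs5 -0.47, with local medians of -0.08 and 0.00. On chromosome 12, 553 genes had a median of 0.30 in litter 112, and the only kept member there, Atp5s, had 0.65. 2010107E04Rik (now Atp5mpl), a small ATP synthase subunit whose symbol falls outside the naming rule, lies on the same chromosome and had 0.71.

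All 5 members on chromosome 10 (Atp5b, Atp5d, Ndufa12, Ndufs7 and Uqcr) were lower in litters 112 and 116, where their local medians were -0.22 to -0.15 and -0.31 to -0.11. All 7 members on chromosome 13 were lower in litter 121, from -0.29 to -0.04, where the chromosome had a median of -0.08. Members on other chromosomes also lay on 1 side of 0 where the shift was smaller. All 4 on chromosome 19 were lower in litter 121 (median -0.25), where the chromosome had a median of -0.01 and 3 of the 4 local medians were above 0, and so were all 6 on chromosome 1 (median -0.23), where the chromosome had -0.03. In litter 116, some of the largest ratios stood beside local medians near 0. These were Ndufs6 at -0.95 and the paralogs Cox6a2 at 1.21 and Cox7a1 at 0.98, beside local medians of -0.04, 0.09 and 0.09. Uqcr, at -0.77, had a local median of -0.16. Subtracting the median of each chromosome in each litter before the test left 0 of 80 genes with an unadjusted p under 0.05, beside 8.29% of all genes in that fit. The part of the chromosome shifts in the members' ratios was not tested.

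Promoter windows were available in RefSeq (GRCm38.p6) for 68 of the 83 genes, each running from 250 bases before to 50 bases after a start of transcription. Short words of the known factors were searched on both strands, and words of different factors may overlap. The NRF1 word GCGCANGCG was in the windows of 20 of 68 genes (29.4%), beside 7.03% of all 27025 genes. The YY1 word AANATGGCG was in 10 (14.7%, beside 2.76%) and the GABP word CCGGAAGT in 5 (7.35%, beside 4.31%). For comparison, the SP1 word GGGCGG was in 29 (42.6%, beside 38.2%), the CREB word TGACGTCA in 4 (5.88%, beside 2.03%) and the ESRRA word TCAAGGTCA in 2 (2.94%, beside 0.466%). The word GGAATG of the TEAD factors, which act with YAP and TAZ in Hippo signalling, was in 7 (10.3%, beside 16.6%). The NRF1 word was in 8 of 32 complex I genes, 2 of 3 of complex II, 2 of 4 of complex III, 1 of 8 of complex IV and 7 of 14 of ATP synthase, and in 0 of 3 tissue paralogs and 0 of 4 assembly or associated factors. A match is a description and not a site.

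The windows of the 4 subunit genes with the largest ratio, of either sign, in 1 litter are shown to compare genes that stood apart in different litters. Capitals mark NRF1, YY1 or GABP words, and the start of transcription follows the first 250 bases. Atp5j (chr16:84834927-84835226, minus strand) and Atp5o (chr16:91931581-91931880, minus strand) were highest in litter 112, Uqcrh (chr4:116075021-116075320, minus strand) in litter 116, and Ndufs6 (chr13:73328433-73328732, minus strand) was lowest in litter 116.
Atp5j: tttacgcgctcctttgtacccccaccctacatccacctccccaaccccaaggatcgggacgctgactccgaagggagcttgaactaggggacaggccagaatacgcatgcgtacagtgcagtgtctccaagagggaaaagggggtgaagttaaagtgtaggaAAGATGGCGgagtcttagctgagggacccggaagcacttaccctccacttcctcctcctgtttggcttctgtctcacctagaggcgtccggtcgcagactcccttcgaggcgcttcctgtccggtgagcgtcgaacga
Atp5o: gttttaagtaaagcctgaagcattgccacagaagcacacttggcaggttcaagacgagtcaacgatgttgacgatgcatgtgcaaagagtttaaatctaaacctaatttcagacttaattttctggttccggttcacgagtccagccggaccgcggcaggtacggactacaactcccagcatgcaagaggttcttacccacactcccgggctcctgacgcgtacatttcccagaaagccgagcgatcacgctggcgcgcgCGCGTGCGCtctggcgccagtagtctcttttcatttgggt
Uqcrh: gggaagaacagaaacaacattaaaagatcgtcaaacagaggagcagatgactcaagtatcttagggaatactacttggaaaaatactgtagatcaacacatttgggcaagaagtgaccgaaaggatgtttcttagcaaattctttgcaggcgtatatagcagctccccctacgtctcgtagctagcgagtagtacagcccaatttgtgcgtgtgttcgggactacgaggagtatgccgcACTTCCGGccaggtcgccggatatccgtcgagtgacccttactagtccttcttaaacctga
Ndufs6: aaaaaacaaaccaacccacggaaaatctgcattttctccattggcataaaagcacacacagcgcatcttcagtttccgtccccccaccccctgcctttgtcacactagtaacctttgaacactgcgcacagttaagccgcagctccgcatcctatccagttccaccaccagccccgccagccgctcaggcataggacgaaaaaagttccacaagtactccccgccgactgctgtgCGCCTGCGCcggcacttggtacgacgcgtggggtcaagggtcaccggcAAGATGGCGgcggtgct
The Atp5j window holds a YY1 word at bases 163 to 171, that of Atp5o an NRF1 word at 261 to 269, that of Uqcrh a GABP word at 240 to 247, and that of Ndufs6 an NRF1 word at 236 to 244 and a YY1 word at 284 to 292. Atp5j and Atp5o had like ratios in litter 112, and their windows shown here hold no exact word in common. Near matches were not searched, and whether a factor acts on both genes was not tested. RefSeq gives 2 windows for Atp5j. The one shown overlaps a window of Gabpa by 247 bases on the opposite strand, and the starts of these windows are 148 bases apart. Gabpa, which encodes the DNA-binding subunit of GABP, had ratios of 0.57, -0.34 and 0.08 in litters 112, 116 and 121, beside 1.03, -0.32 and 0.19 for Atp5j. The 20 genes within 5 Mb of Atp5j had medians of 0.57, -0.03 and 0.07 in the same litters. Shared control of Gabpa and Atp5j was not tested.

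Of the 6 paralogs of complex IV subunits, 3 were not kept. Cox8b and Cox8c were above background in no channel, and Cox4i2, the isoform of the lung and of low oxygen, in 1 channel of each genotype. The paralogs that these cells use are Cox4i1, above, and Cox8a, with 0.26, 0.40 and -0.06. Cox6a2, the heart and skeletal muscle form, had ratios of -0.28, 1.21 and -0.32. In litter 116 its log2 signal was 10.51 in Lats2-/- and 9.30 in Lats2+/+ cells, and in the other litters it was between 6.55 and 7.10 in all 4 extracts, so that both genotypes of litter 116 stood above the others. Its mean was 0.20, and with the scanner software's processed signals it was -0.15, so that the mean has no settled sign. Cox7a1, the muscle form of Cox7a2, had 0.69, 0.98 and 0.01 (mean 0.56 ± 0.50; limma, adjusted p = 0.716), the highest mean of all members. The size depended on how background was treated, with a mean of 0.73 at a normexp offset of 16 and 0.96 with processed signals. Cox7a1 was dim, with log2 signals of 6.83 to 7.81 over the extracts, beside a mean of 6.05 for Cox8b, which was not detected. The counterpart of Cox7a1, Cox7a2, had a mean log2 signal of 14.09. The ratio of Cox7a2 was lowest in litter 112 and near 0 in litter 121. Without litter 121, Cox7a1 had a mean of 0.84 and an unadjusted p of 0.0148 in limma's test (adjusted p = 0.734), where 7.51% of all genes had an unadjusted p under 0.05. Of the 7 skeletal muscle markers, Ckm, Des, Myh3 and Myog were above background in no channel, and Acta1, an actin of skeletal muscle, had -0.47, 3.48 and 0.35. The summed muscle list differed by -0.43, 2.52 and 0.34, and in litter 116 its markers other than Acta1 had -0.05 to 0.06. The part of this list in the ratios of Cox6a2 and Cox7a1 was not tested. Cox6b2, a testis form, had -0.01, 0.10 and 0.02. The widely used Cox6b1 had -0.08, 0.20 and 0.10.

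Of the 4 assembly or associated factors, Ndufa12l (now Ndufaf2), a complex I assembly factor, was lower throughout, with -0.27, -0.33 and -0.15 (mean -0.25 ± 0.09; limma, adjusted p = 0.716). Ndufaf1, another complex I assembly factor, had 0.50, -0.25 and 0.08. Cox7a2l, which takes part in the joining of complexes III and IV, had 0.48, 0.57 and -0.20, and without litter 121 an unadjusted p of 0.0377 in limma's test (adjusted p = 0.734). Cox4nb, outside the chain, had -0.54, 0.18 and 0.13.

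In lists of other genes of the pathway, 0 genes had an adjusted p under 0.05. Of 24 assembly factors outside the naming rule, 1 had an unadjusted p under 0.05, beside 7.59% of all genes, a share to set beside each list here. This was 2310005N03Rik (now Cox20), a complex IV assembly factor, with 0.36, 0.30 and 0.27 (mean 0.31 ± 0.05; limma, adjusted p = 0.711). Atpaf1, an ATP synthase assembly factor on chromosome 4 like Uqcrh, had -0.48, 0.98 and 0.14. None of 6 electron carrier genes, 3 subunits under other symbols, 9 regulators, 10 genes of mitochondrial DNA expression, 12 citrate cycle genes and 3 genes named as mitochondrially encoded had an unadjusted p under 0.05. Cycs, which encodes cytochrome c, was below 0 in each litter, with -0.44, -0.17 and -0.16 (limma, adjusted p = 0.726). Etfdh, of the same list, was above 0 in each, with 0.36, 0.29 and 0.16 (limma, adjusted p = 0.711). In that list, 3, 2 and 2 of the 6 genes were higher in litters 112, 116 and 121. Nrf1 had -0.17, -0.07 and 0.04 and Esrra, a nuclear receptor that acts on these genes, 0.05, 0.65 and -0.13. Tfam, the packaging factor of mitochondrial DNA, had 0.00, 0.40 and 0.29. Of the 10 genes of mitochondrial DNA expression, to which Tfam belongs, 2, 3 and 4 were higher in litters 112, 116 and 121. The median of their mean ratios was -0.10. All 12 citrate cycle genes were lower in litter 121 (median -0.38), in which 29 of 80 respiratory chain genes were higher, while 8 and 6 of the 12 were higher in litters 112 and 116. Values were alike at 3 probes named for mitochondrially encoded subunits, with 0.20, -0.38 and 0.15 for CYTB, 0.35, -0.34 and -0.01 for ND4L and 0.21, -0.33 and -0.02 for COX2. The files place the COX2 probe on chromosome 1 and not on the mitochondrial genome, so that its label is uncertain. Their median was 0.21 in litter 112 and -0.34 in litter 116, beside 0.11 and -0.01 for the nuclear genes. Of 18 proliferation genes, 1 was higher in litter 112, 1 in litter 116 and 16 in litter 121 (medians -0.60, -0.63 and 0.30). In that list 1 of 18 genes, Mcm6, had an unadjusted p under 0.05 (0.00364, adjusted p = 0.711), with -0.73, -0.76 and -0.54.

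RefSeq lists 15 named pseudogene copies for 10 of the genes, among them Uqcrh, Cox5b, Ndufa12 and Atp5k. Probe sequences were not used here, so the values of these 10 genes are uncertain where a probe may also bind a copy.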

How the data were processed

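The authors hybridised labelled RNA to a whole mouse genome array and extracted the scans with Agilent Feature Extraction (10.7.3.1 per the file headers; 10.5.1.1 in the submitters' processing notes). The deposited scanner files give mean and background intensity per spot on a linear scale, not normalized, processed intensity, and log10 ratios of red over green. The deposited value table holds the same log10 ratios turned to Lats2-/- over Lats2+/+. Here, limma 3.58.1 (R 4.3.3) corrected mean intensities by normexp with offset 50 and ran loess within arrays, without control spots or the 860 gene spots called outliers (0 were saturated). Ratios were averaged over repeat spots and the arrays of a litter. Litter ratios (n = 3) were tested against 0 with lmFit and eBayes, two-sided, with Benjamini-Hochberg adjustment over 22642 kept probes. Signals were taken after Aquantile scaling between arrays. Named genes were those with the highest and lowest mean of each complex, core subunits, paralog pairs, genes whose probes disagree in sign, and genes with an unadjusted p under 0.05; others were named after their values were seen. Members and lists were chosen with earlier results of these data known. The local medians and chromosome medians were added after seeing the data. The limma fit was checked on simulated litter ratios with true changes of 2-fold or more. The mean ratios of the 80 genes were all smaller, so the check does not cover changes of their size. Coordinates of probes are mm8 and of promoters GRCm38.p6. The 3 litters are the replicates, since arrays of a litter share extracts.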

Additional observations from a re-analysis of the deposited data

How the results depend on the processing

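The adjusted count was 0 under each alternative that gave a test (of 83 genes with no filter on dim probes, of 80 otherwise), and the medians of a single slide carry no such count. In contrast, the count of genes with an unadjusted p under 0.05, 0 in the reported test, depended on the fit. It was 3 with median centring (3.75%, beside 7.46% of all genes in that fit), 8 of 83 with no filter on dim probes (9.64%, beside 6.38%), 1 with the mean over all kept probes of a gene (1.25%, beside 7%), 3 by the methods' t-test (3.75%, beside 5.82%), 8 with litter as a random block over the 8 arrays (10%, beside 15%), 6 with a dye term added (7.5%, beside 14.7%) and 8 under a random slide block (10%, beside 19.1%). Leaving each litter out in turn gave 0 to 2, the 2 being Cox7a1 and Cox7a2l without litter 121 (2.5%, beside 7.51%). The fit without the replicate block gave 0 (beside 2.77%). The cause was not tested, except that fits over arrays count repeat arrays of a litter and so have more values. The other settings gave 0, beside 7.23% of all genes with a normexp offset of 16, 6.81% with processed signals, 6.79% with the deposited value table, 7.97% with all 6 extracts above background, 7.59% with outlier spots kept and 8.29% with chromosome medians subtracted. Median ratios moved by more than their SD over litters in these cases: complex III was -0.13 with median centring, -0.13 without litter 112 and 0.017 without litter 121 (slide 1 alone). The median of all members was -0.0469 without litter 112. On slide 2 alone it was -0.0547, with -0.0364 for complex I and -0.18 for complex II. By less than their SD, complex II turned to -0.10, complex IV to -0.04 and ATP synthase to -0.08 without litter 112, and all members rose to 0.0761 without litter 121. Median centring turned the medians of all members, complexes I, II and IV and ATP synthase below 0, so that no group's median kept its sign under all settings run. Counting Cox4nb with complex IV, an alternative chosen after seeing the data, turned that median from 0.02 to -0.02. Of the named genes, 8 of 26 means moved by more than 1 SD on slide 2 alone and 0 under the other settings. The sign of the mean changed for 8 of 26 on slide 2 alone, 6 without litter 116, 4 without litter 121 and likewise on slide 1 alone, 2 (Cox5b and Cox6a2) with processed signals or the deposited values, 2 with chromosome medians subtracted, and 1 each with median centring, the random slide block and the mean over probes. All 80 genes were above background on every array.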
